A study of Mus musculus with 16 samples.

Results

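Potassium channel genes of the mouse carry symbols that start with Kcn, and 94 of the 55385 genes in the tables were protein-coding genes with such a symbol. They were chosen by the symbol alone, and 5 noncoding antisense genes with a Kcn symbol, such as Kcnq1ot1, were left out. The 94 genes encode the pore-forming subunits of the voltage-gated, calcium- and sodium-activated, inwardly rectifying and two-pore potassium channels, the modifier subunits that carry no current alone, and the auxiliary subunits. Of these, 74 had enough counts to be tested, among 17222 genes tested in all. The other 20 stayed at 16 counts or fewer in every library.

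Potassium channels let potassium leave the neuron, which sets the resting potential, repolarizes the action potential and limits repetitive firing. Voltage-gated (Kv) pores are tetramers whose subunits mix within a family, so the gating of a channel depends on which members are made together. Inward rectifiers and two-pore channels act near rest, small-conductance calcium-activated channels carry the afterhyperpolarization that follows a spike, and the M-current of Kcnq channels restrains bursts. In the hippocampus, these subunits are divided between axon, soma and dendrites, and several of their genes are known to respond to the activity of the network.

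Dissociated hippocampal neurons of newborn C57Bl/6N mice were infected with recombinant adeno-associated viruses carrying a short hairpin RNA behind the U6 promoter and GFP behind the chicken β-actin promoter. The hairpin was either Control-shRNA or Dnmt3a1-shRNA2, which targets the long isoform of the DNA methyltransferase Dnmt3a. Cultures of both kinds were harvested in baseline or after 4 h of bicuculline, a GABA-A receptor antagonist that drives bursts of action potentials. RNA was sequenced from 4 independent neuronal preparations per group, which gives 16 libraries in the groups Control-shRNA baseline, Control-shRNA bicuculline, Dnmt3a1-shRNA2 baseline and Dnmt3a1-shRNA2 bicuculline. All groups carry a virus and a hairpin, and the knockdown rests on a single hairpin construct in these libraries. The cultures were not sorted, so every value is a sum over all cells of a dish, and fewer cells of a type cannot be told apart from less RNA per cell.

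The libraries held between 28912697 and 29586355 counts. Levels within a gene are given as CPM, read counts scaled to a common library size by TMM between libraries, and levels between genes as TPM, which also divides by transcript length. Dnmt3a was at 293 to 324 CPM in Control-shRNA baseline and 39.4 to 48.0 CPM in Dnmt3a1-shRNA2 baseline, and at 311 to 338 and 43.8 to 47.8 CPM with bicuculline. The counts sum all isoforms of a gene, so Dnmt3a1 is not separated from the shorter Dnmt3a2. The activity-regulated genes Arc, Fos and Npas4 were higher with bicuculline by at least 5.64 on the log2 scale with either hairpin. In baseline, Fos was called higher with Dnmt3a1-shRNA2 than with Control-shRNA (0.58 on the log2 scale), though its libraries overlapped. Arc (−0.39) and Npas4 (0.61) were not called there, and with bicuculline none of these genes was called between the hairpins. Neuronal markers summed to 5529.7 to 7067 CPM per library over all groups, astrocyte markers to 253 to 678 CPM, and microglial markers to 1.89 to 4.91 CPM. With bicuculline, 3 of 5 markers of GABAergic neurons (Gad1, Gad2 and Dlx1) were called higher with each hairpin. Of the other neuronal markers, Slc17a6 was called higher (1.54 with Control-shRNA and 1.53 with Dnmt3a1-shRNA2 on the log2 scale), and Neurod6 (−1.29 and −1.14) and Tubb3 (−0.77 and −1.12) lower. The part of these markers in the changes of the Kcn genes was not tested. The share of mitochondrial counts ranged from 2.73% to 6.60%, and replicate 3 had the lowest share in each group.

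The cultures expressed subunits of every class. In mean TPM over the 16 libraries, 10 members lay at 50 or more, 37 between 10 and 50, 17 between 1 and 10 and 30 under 1. The highest was Kcnab2, the main cytoplasmic beta subunit of Kv1 channels, at 109 TPM. Other abundant members were the inward rectifier Kcnj4 (97.2 TPM), the beta subunit of large-conductance calcium-activated channels Kcnmb4 (69.4 TPM), the ELK channel Kcnh3 (61.5 TPM) and the G protein-gated Kcnj3 (59.4 TPM). Summed over all 94 genes, a library held 1533 to 2092 TPM.

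By class, the 30 Kv pore genes took most of this sum, with 770.4 ± 46.0 TPM (SD, n = 4) in Control-shRNA baseline. The 17 auxiliary genes added 422 ± 31.8 TPM, the 15 inward rectifiers 241 ± 25.4 TPM and the 14 two-pore genes 199 ± 15.04 TPM. The 8 calcium- or sodium-activated pores gave 156 ± 11.4 TPM and the 10 modifiers 110.2 ± 16.7 TPM. A single gene led several families. Kcnj4 made up 92.1% of the TPM of the strong inward rectifiers of the Kir2 subfamily, and Kcnmb4 86.9% of the beta subunits of the Slo1 channel.

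The Kv1 and Kv4 families were mixed. Kcnd2 and Kcnd3, the somatodendritic A-type pores, took 44.1% and 42.3% of the Kv4 sum in Control-shRNA baseline. In the Kv7 family, Kcnq5 took 22.2% and Kcnq3 16.8%. Kcnq1, a channel of heart and epithelia, was among the 20 genes too low to test, as were the kidney channel Kcnj1 and 4 of the 5 Kcne genes, whose products are single-pass subunits. Kcnj10, the main potassium channel of astrocytes, was at 26.7 TPM in these unsorted cultures.

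**Figure D1:**
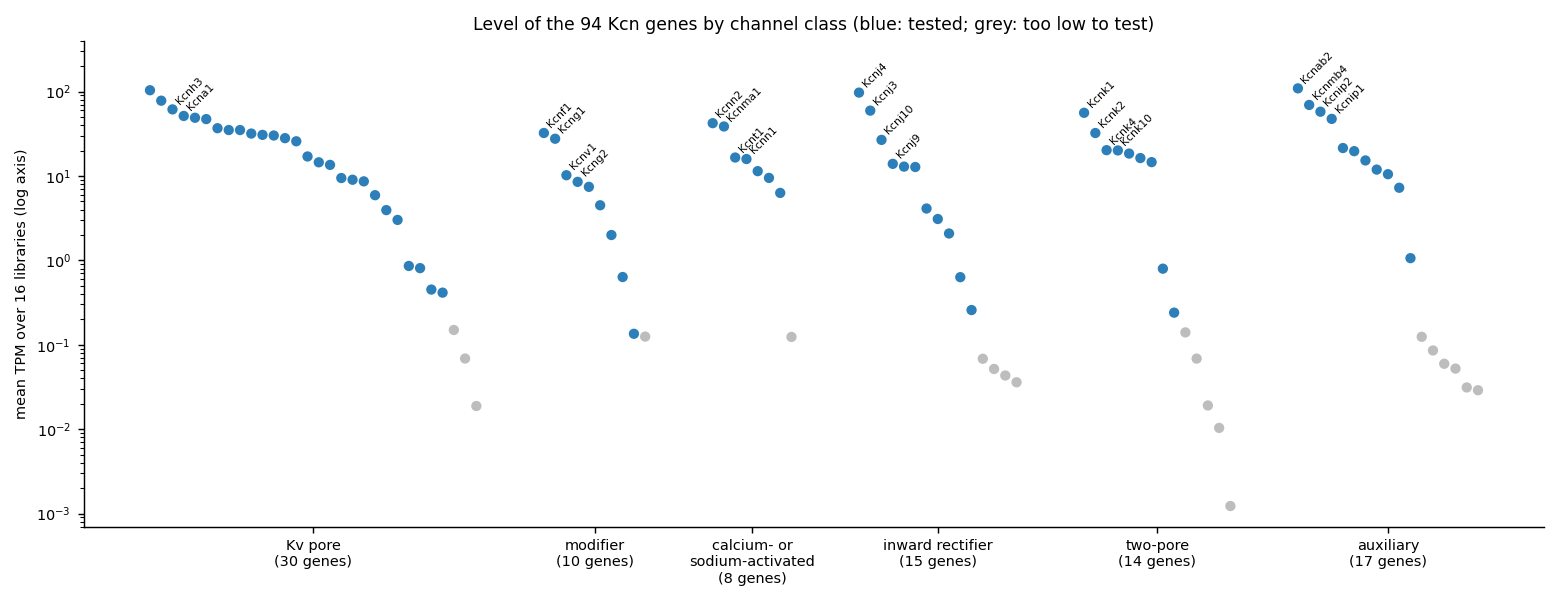
Mean TPM of the 94 Kcn genes over the 16 libraries on a log axis, by channel class, each point 1 gene. Blue points are the 74 genes tested and grey points the 20 that were too low. Every class has members above 10 TPM, and Kcnab2 lies highest.

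The first comparison asked which subunits respond to network activity in control neurons. With bicuculline, 21 of the 74 tested members were called, that is, their adjusted p was under 0.05 and their log2 fold change over 0.5 in size. That is 28.4% of the members, where 21.9% of all genes tested were called. Of the 21, 10 were higher (10.8% of all genes) and 11 lower (11.1% of all genes). Changes are given as log2 fold changes ± standard error, with Benjamini-Hochberg adjusted p-values of edgeR's quasi-likelihood test. The median log2 fold change was −0.04 over the members and 0.01 over all genes. The adjusted p alone was passed by 34 members (45.9%) and by 41.4% of all genes. In 32 members (43.2%) and 39.7% of all genes no baseline library overlapped a bicuculline library. The Kv1 and Kir families and the modifier class each held members that rose and members that fell. Scaled by library size alone, which moved the median of all genes to −0.15, the split was 7 higher and 14 lower.

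In the Dnmt3a1-shRNA2 cultures the same comparison called 23 members, where 25.8% of all genes were called. Of these, 12 were higher (12.6% of all genes) and 11 lower (13.2% of all genes). The adjusted p alone was passed by 40 members (54.1%) and 46.0% of all genes. Baseline and bicuculline did not overlap in 38 members (51.4%) and 40.4% of all genes. The 23 included all 21 members called with Control-shRNA, plus Kcnmb2 and Kcnn2. With library sizes alone the split was 8 higher and 20 lower, and 67.2% of all genes called there were lower. These libraries are separate from those of the first comparison, and the log2 fold changes of the 74 members in both had a Pearson's r of 0.93 and a Spearman's rho of 0.89, with the same sign in 64. Same-numbered libraries may share a preparation, and members are not independent of each other. The baseline and bicuculline libraries of these comparisons also enter the comparisons between hairpins.

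**Figure D2:**
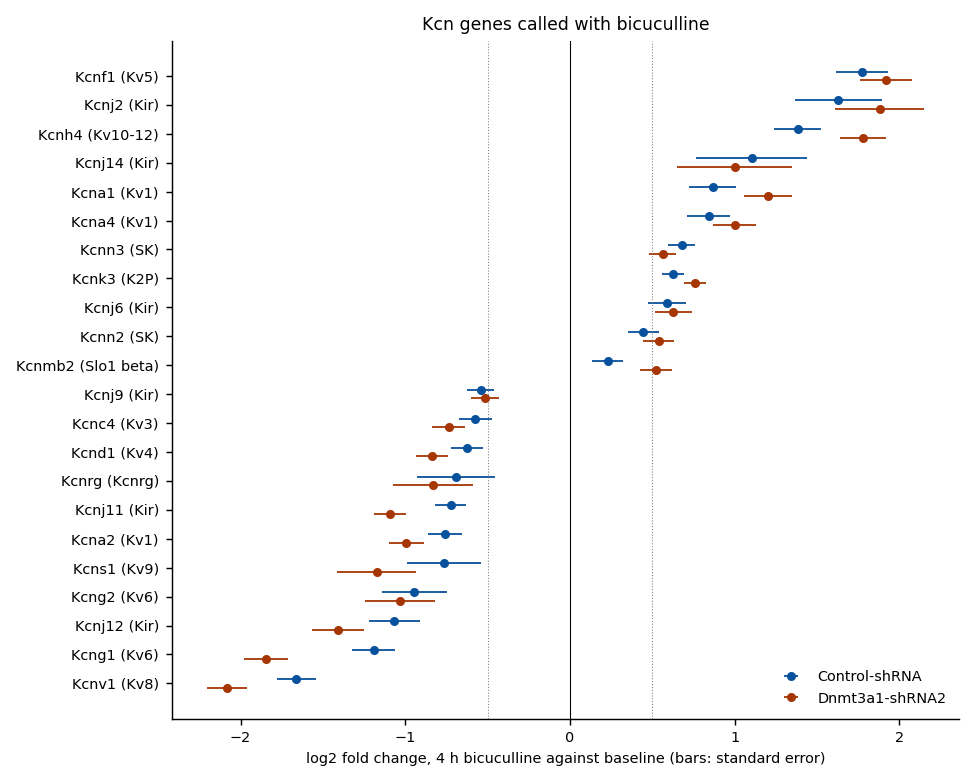
Log2 fold change of called Kcn genes, 4 h of bicuculline against baseline, in Control-shRNA (blue) and Dnmt3a1-shRNA2 (red). Bars are standard errors from the fit of 4 libraries a group, and dotted lines mark the threshold of 0.5. Kcnf1, Kcnj2 and Kcnh4 lie at the top and Kcnv1, Kcng1 and Kcnj12 at the bottom with both hairpins.

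The largest rise and the largest fall were both in modifier subunits. These proteins, of the Kv5, Kv6, Kv8 and Kv9 families, form no channel alone and alter the gating of Kv2 pores when they join them. Of the 9 tested, 5 were called with bicuculline, 1 higher and 4 lower, with both hairpins. With the replicate number as a block, Kcng3 (higher) and Kcnv2 (lower) were also called with Dnmt3a1-shRNA2. The riser with both hairpins was Kcnf1 (chr12:17172100-17176888), the only Kv5 gene. Its levels in Control-shRNA were 34.5, 40.2, 50.2 and 33.5 CPM in baseline and 129.8, 149, 142 and 120.2 CPM with bicuculline. In Dnmt3a1-shRNA2 they were 25.7, 32.7, 43.7 and 26.2 CPM and 114, 131, 137 and 104 CPM. Every bicuculline library was above every baseline library, and the log2 fold change was 1.77 ± 0.16 (adjusted p = 8.77e-08) with Control-shRNA and 1.92 ± 0.16 (adjusted p = 2.67e-08) with Dnmt3a1-shRNA2, the largest rise among the members in both.

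Kcnv1 (chr15:45106284-45114920), a Kv8 gene, showed the opposite. It was at 31.2, 25.7, 31.0 and 29.4 CPM in Control-shRNA baseline and at 8.56, 10.7, 9.75 and 8.03 CPM with bicuculline. The corresponding Dnmt3a1-shRNA2 values were 39.1, 27.5, 32.1 and 37.8 CPM and 8.59, 7.40, 8.95 and 7.31 CPM. No bicuculline library reached the lowest baseline library, and the gene was 3.16-fold lower with Control-shRNA (log2 change −1.66 ± 0.12, adjusted p = 6.16e-09) and 4.23-fold lower with Dnmt3a1-shRNA2 (log2 change −2.08 ± 0.12, adjusted p = 3.03e-10). This was the largest fall among the members with either hairpin.

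A pair of Kv6 genes fell as well. Kcng1 (chr2:168260117-168281736) went from 95.0, 79.7, 89.9 and 64.8 CPM in Control-shRNA baseline to 35.1, 44.0, 36.5 and 28.5 CPM with bicuculline, a log2 fold change of −1.19 ± 0.13 (adjusted p = 9.45e-07). Kcng2 was lower, with 13.5, 12.3, 12.6 and 10.3 CPM in baseline and 4.65, 8.70, 6.59 and 5.33 CPM with bicuculline, a log2 fold change of −0.95 ± 0.20 (adjusted p = 0.000839). Neither gene overlapped between the groups. With Dnmt3a1-shRNA2 the log2 changes were −1.84 ± 0.13 for Kcng1 and −1.03 ± 0.21 for Kcng2. Kcng2 shares 272 of its 2989 exonic bases with a gene on the other strand, and in log2(TPM + 0.1) its fall in Control-shRNA missed the threshold at an adjusted p of 0.0507.

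Among the Kv9 genes, Kcns1 fell from 3.49, 4.01, 4.26 and 3.02 CPM to 1.56, 2.34, 2.81 and 1.96 CPM with Control-shRNA, and the groups did not overlap (log2 change −0.76 ± 0.23, adjusted p = 0.0113). With Dnmt3a1-shRNA2 its log2 change was −1.17 ± 0.24 (adjusted p = 0.000593). The related Kcns2 and Kcns3 were not called, with log2 changes of −0.18 ± 0.07 (adjusted p = 0.0394) and 0.13 ± 0.14 (adjusted p = 0.506) in Control-shRNA.

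The summed TPM of the modifiers overlapped between the conditions, while their make-up differed. The sum was 110.2 ± 16.7 TPM in Control-shRNA baseline and 96.0 ± 14.5 TPM with bicuculline. Kcng1 held the largest share in baseline, 41.0% (range 38.5 to 44.6%), and 18.3% with bicuculline. Kcnf1 went from 16.3% (range 13.5 to 18.3%) to 55.5% (range 53.4 to 57.1%) and so led the class in each bicuculline library. Kcnv1 went from 14.7% to 4.69%. With Dnmt3a1-shRNA2 the share of Kcnf1 was 14.1% in baseline and 61.0% with bicuculline. Of the Kv2 pores, Kcnb2 had a log2 fold change of −0.44 ± 0.13 (adjusted p = 0.0106), under the fold threshold, and passed it when libraries were scaled by size alone.

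**Figure D3:**
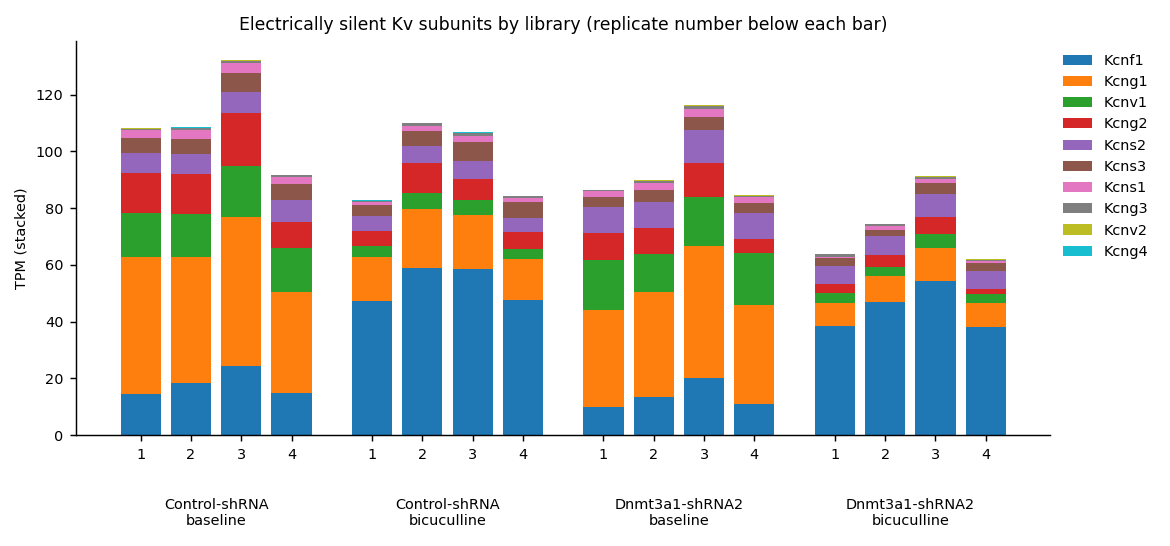
TPM of the 10 electrically silent Kv subunits, stacked, in each of the 16 libraries (replicate number below each bar). The blue part, Kcnf1, is 16.3% of the bar on average in Control-shRNA baseline and 55.5% with bicuculline, and the orange part, Kcng1, shrinks from 41.0% to 18.3%.

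Of the 27 tested Kv pore genes, 4 rose and 3 fell with bicuculline in Control-shRNA, and the same numbers held in Dnmt3a1-shRNA2. The Kv1 family, the low-threshold channels of axons, was divided. Kcna1 (chr6:126640397-126646384) had 73.3, 62.7, 82.0 and 83.8 CPM in Control-shRNA baseline and 167, 115, 124 and 144 CPM with bicuculline, a log2 fold change of 0.87 ± 0.14 (adjusted p = 0.000108). Kcna4 (chr2:107290639-107298502), which encodes an inactivating A-type pore, had 39.9, 36.0, 42.1 and 48.3 CPM and 88.3, 64.5, 66.8 and 78.3 CPM, a log2 change of 0.84 ± 0.13 (adjusted p = 4.62e-05). Kcna2 (chr3:107101146-107115005), the usual axonal partner of Kcna1, fell from 99.4, 96.5, 104 and 104 CPM to 55.9, 61.2, 62.0 and 59.3 CPM, a log2 change of −0.76 ± 0.10 (adjusted p = 1.42e-05). For all 3 genes the bicuculline and baseline libraries were fully apart.

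The same 3 genes moved the same way with Dnmt3a1-shRNA2, by 1.201 ± 0.15 for Kcna1, 1.0 ± 0.13 for Kcna4 and −0.99 ± 0.11 for Kcna2. Per length, the share of Kcna1 in the Kv1 sum went from 27.1% to 38.8% with Control-shRNA, and that of Kcna2 from 12.3% to 5.82%. Kcna6, the leading Kv1 gene in baseline at 36.2%, was not called (log2 fold change −0.25 ± 0.10, adjusted p = 0.0583). The 3 cytoplasmic beta subunits of these channels were not called either. Kcnab2, the highest member, was at 217, 219, 209.7 and 210.0 CPM and 210.1, 217, 204 and 207 CPM, and its groups overlapped. Kcnrg, a soluble regulator of Kv1 channels near 1 CPM, fell by 0.69 on the log2 scale (adjusted p = 0.0269) with Control-shRNA, and this call was lost in 5 of the 16 fits that leave out a library. Those were the fits without Control-shRNA baseline replicate 1, 2 or 4 or Control-shRNA bicuculline replicate 3 or 4, with adjusted p from 0.0501 to 0.0796. It was also lost with no filter on low counts (−0.70, adjusted p = 0.0667) and in log2(TPM + 1), where −0.46 was under the fold threshold.

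Of the Kv3 genes, whose fast channels allow high firing rates, Kcnc4, which inactivates rapidly, fell from 52.3 to 60.8 CPM to 32.4 to 44.1 CPM with Control-shRNA, without overlap (log2 change −0.57 ± 0.10, adjusted p = 0.000188). Kcnc1 and Kcnc2 passed the adjusted p alone, with log2 changes of 0.29 ± 0.06 (adjusted p = 0.000790) and 0.29 ± 0.08 (adjusted p = 0.00720). In Dnmt3a1-shRNA2, Kcnc4 had a log2 change of −0.74 ± 0.10.

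Kcnd1, the least expressed of the 3 A-type Kv4 pores, fell with Control-shRNA from 22.9, 21.3, 18.2 and 22.1 CPM to 11.8, 14.4, 14.6 and 14.1 CPM (log2 change −0.62 ± 0.10, adjusted p = 4.74e-05). Its 4 bicuculline libraries all lay below its 4 baseline libraries, and with Dnmt3a1-shRNA2 the log2 change was −0.84 ± 0.10. Kcnd2 and Kcnd3 were not called, with log2 changes of −0.09 ± 0.10 (adjusted p = 0.520) and 0.23 ± 0.06 (adjusted p = 0.00785). None of the 4 Kcnip genes, which encode the calcium-binding partners of Kv4, was called in any comparison, although Kcnip1 (log2 change 0.23 ± 0.06, adjusted p = 0.00487) and Kcnip2 (log2 change −0.19 ± 0.07, adjusted p = 0.0476) passed the adjusted p alone in Control-shRNA.

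Kcnh4 (chr11:100740376-100759942), an ELK-type pore of low level, rose strongly. Control-shRNA baseline held 3.29, 3.46, 2.53 and 2.50 CPM and Control-shRNA bicuculline 6.14, 8.66, 7.07 and 8.80 CPM. Dnmt3a1-shRNA2 held 2.53, 3.56, 2.92 and 3.03 CPM and 9.78, 10.8, 10.6 and 10.2 CPM. Baseline and bicuculline did not overlap, and the rise was 2.61-fold (log2 change 1.38 ± 0.14, adjusted p = 4.81e-07) with Control-shRNA and 3.43-fold (log2 change 1.78 ± 0.14, adjusted p = 1.54e-08) with Dnmt3a1-shRNA2. The other 7 genes of the Kcnh group were not called, and its most abundant member Kcnh3 had a log2 change of −0.26 ± 0.09 (adjusted p = 0.0354). Kcnq3 and Kcnq5, which encode subunits of the M-current, were not called, with log2 changes of 0.03 ± 0.15 (adjusted p = 0.889) and −0.11 ± 0.08 (adjusted p = 0.296).

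Among the 11 tested inward rectifiers, 3 rose and 3 fell with bicuculline, with both hairpins. The strong rectifiers of the Kir2 subfamily hold the membrane near rest. Kcnj2 (chr11:111066164-111076821), which encodes its best-known member, had 4.28, 3.21, 6.30 and 3.96 CPM in Control-shRNA baseline and 20.2, 12.3, 12.4 and 10.1 CPM with bicuculline. In Dnmt3a1-shRNA2 the levels were 4.85, 3.11, 5.08 and 2.39 CPM and 19.7, 12.1, 13.1 and 11.96 CPM. The lowest bicuculline library lay above the highest baseline library with each hairpin, and replicate 1 was the highest bicuculline library in both. The log2 fold change was 1.63 ± 0.26 (adjusted p = 7.52e-05) with Control-shRNA and 1.88 ± 0.27 (adjusted p = 1.57e-05) with Dnmt3a1-shRNA2.

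Its relative Kcnj12 (chr11:61022564-61071131) fell. It had 6.19, 5.74, 5.78 and 4.38 CPM in Control-shRNA baseline and 2.31, 3.20, 2.51 and 2.53 CPM with bicuculline, and 8.75, 7.06, 5.78 and 7.37 CPM and 2.57, 2.78, 3.28 and 2.25 CPM with Dnmt3a1-shRNA2. Again no library of one condition reached the other, and the log2 changes were −1.07 ± 0.16 (adjusted p = 2.84e-05) and −1.41 ± 0.16 (adjusted p = 9.02e-07). In TPM, Kcnj12 exceeded Kcnj2 in baseline, with 5.54% against 1.77% of the Kir2 sum, and Kcnj2 exceeded Kcnj12 with bicuculline, with 4.02% against 1.92%. Both were small beside Kcnj4, which had 84.3, 85.0, 93.5 and 78.6 CPM in Control-shRNA baseline and 117, 127, 124 and 108 CPM with bicuculline. Those groups did not overlap, but the log2 change of 0.48 ± 0.08 (adjusted p = 0.000179) stayed under the fold threshold. Kcnj14, the last Kir2 gene, lay between 0.294 and 1.90 CPM. It was called higher at 1.10 ± 0.34 (adjusted p = 0.0138), a call that was lost without Control-shRNA bicuculline replicate 1 (0.69, adjusted p = 0.0845) and in log2(TPM + 1) (0.28, adjusted p = 0.126).

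G protein-gated (Kir3) channels carry the slow inhibition that follows GABA-B and other receptors. Kcnj6 was higher, with 12.5, 11.3, 13.4 and 13.6 CPM in Control-shRNA baseline and 20.3, 19.0, 17.8 and 19.4 CPM with bicuculline (log2 change 0.59 ± 0.11, adjusted p = 0.000466), and Kcnj9 was lower, with 31.6 to 35.1 CPM and 21.5 to 25.1 CPM (log2 change −0.54 ± 0.08, adjusted p = 3.84e-05). Neither overlapped between the groups. With Dnmt3a1-shRNA2 the log2 changes were 0.63 ± 0.11 and −0.52 ± 0.08. Their common partner Kcnj3, which made up 68.9% of the Kir3 sum, was not called (log2 change 0.16 ± 0.13, adjusted p = 0.367). Kcnj6 lost its call with library sizes alone, at 0.43 (adjusted p = 0.00207).

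Kcnj11, the pore of neuronal ATP-sensitive channels, fell from 25.3, 22.8, 21.5 and 21.8 CPM to 12.4, 15.8, 14.2 and 12.8 CPM with Control-shRNA (log2 change −0.72 ± 0.09, adjusted p = 8.11e-06). Dnmt3a1-shRNA2 gave 21.9, 22.9, 20.7 and 25.5 CPM in baseline and 10.1, 10.1, 12.4 and 10.01 CPM with bicuculline (log2 change −1.09 ± 0.10, adjusted p = 6.23e-08). The conditions did not overlap with either hairpin. Of its sulphonylurea receptor partners, Abcc8 had a log2 change of −0.25 ± 0.06 (adjusted p = 0.00506) and Abcc9 was called higher with Control-shRNA at 0.91 ± 0.25 (adjusted p = 0.00786), but had a log2 change of −0.12 ± 0.25 (adjusted p = 0.761) with Dnmt3a1-shRNA2. Pdgfrb, a marker of the cells around vessels, had log2 changes of 0.56 (adjusted p = 0.0241) and −0.04 (adjusted p = 0.895). The other tested markers of vessels and fibroblasts were not called with either hairpin. Their log2 changes were 0.24 and 0.28 for Rgs5, 0.67 and 0.58 for Col1a1, 0.33 and 0.23 for Dcn and −0.23 and −0.20 for Pecam1. The part of these markers in the Abcc9 result was not tested. The difference between the hairpins did not pass its test for Abcc9 either. Kcnj10 was not called (log2 change 0.21 ± 0.22, adjusted p = 0.486).

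Of the 9 tested two-pore channels, which carry the leak current, 1 was called. Kcnk3 (chr5:30588170-30625271), an acid-sensitive member, had 22.5, 24.7, 23.4 and 22.3 CPM in Control-shRNA baseline and 33.6, 39.3, 35.7 and 34.8 CPM with bicuculline, without overlap (log2 change 0.63 ± 0.07, adjusted p = 1.12e-06), and its log2 change with Dnmt3a1-shRNA2 was 0.76 ± 0.07. Kcnk1, the most abundant of the class, passed the adjusted p alone. Its levels were 70.0, 58.1, 60.7 and 58.8 CPM and 46.8, 49.1, 49.8 and 47.6 CPM, a log2 change of −0.36 ± 0.07 (adjusted p = 0.000310). Both results depended on the scaling. With library sizes alone Kcnk3 was under the fold threshold (0.47, adjusted p = 0.000365) and Kcnk1 was called lower.

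The small-conductance calcium-activated channels include 2 genes that were called higher with at least 1 hairpin. Kcnn3 was at 26.6, 21.6, 24.4 and 23.0 CPM in Control-shRNA baseline and 37.6, 39.8, 37.6 and 37.7 CPM with bicuculline (log2 change 0.68 ± 0.08, adjusted p = 3.14e-06). Kcnn2 was at 44.99, 48.8, 49.4 and 44.0 CPM and 71.7, 56.6, 57.7 and 68.7 CPM, which gave 0.44 ± 0.09 (adjusted p = 0.000920), under the fold threshold, and at 0.54 ± 0.09 (adjusted p = 0.000131) with Dnmt3a1-shRNA2, where it was called. Both were apart between baseline and bicuculline in Control-shRNA. Kcnn1 was not called (log2 fold change −0.22 ± 0.09, adjusted p = 0.0525). The pore of the large-conductance channel, Kcnma1, had a log2 change of −0.05 ± 0.13 (adjusted p = 0.768). Its beta subunit Kcnmb2, which gives the channel inactivation, was called with Dnmt3a1-shRNA2 (log2 change 0.52 ± 0.10, adjusted p = 0.000262) and not with Control-shRNA (log2 change 0.23 ± 0.10, adjusted p = 0.0680). For neither Kcnn2 nor Kcnmb2 did the difference between the hairpins pass the test of that difference.

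Several calls in the Dnmt3a1-shRNA2 comparison were close to the threshold. Kcnn3 went to 0.48 (adjusted p = 2.49e-05) without baseline replicate 2. Kcnn2 was at 0.49 without bicuculline replicate 1 and 0.47 without bicuculline replicate 4. Kcnmb2 fell under the fold threshold without baseline replicate 1 or 4 or bicuculline replicate 1 (0.46 to 0.49). Kcnj9 did so without baseline replicate 3 or bicuculline replicate 1 or 4 (−0.49 to −0.46). Kcnj14 had an adjusted p of 0.0569 to 0.0784 without baseline replicate 1 or 2 or bicuculline replicate 1, 2 or 4. Other settings ended some of these calls too. With library sizes alone and in log2(TPM + 1), the values were 0.42 and 0.43 for Kcnn3, 0.39 and 0.37 for Kcnn2, and 0.36 and 0.28 for Kcnmb2, whose adjusted p in log2(TPM + 1) was 0.185. These 3 calls were lost in log2(TPM + 0.1) as well. Kcnj9 was at −0.49 in DESeq2 and with its size factors in edgeR, and Kcnj14 lost its call in both TPM fits, with adjusted p of 0.107 and 0.0737.

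**Figure D4:**
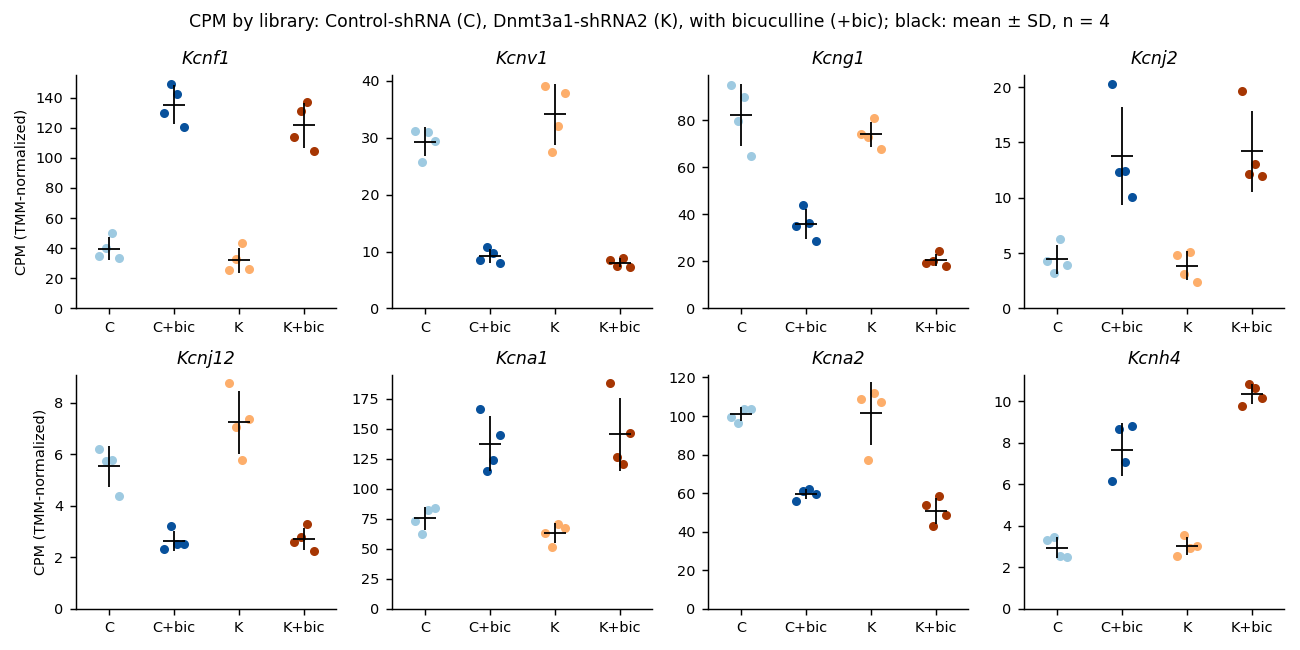
CPM of 8 Kcn genes in each of the 16 libraries, in Control-shRNA (C) and Dnmt3a1-shRNA2 (K), in baseline and with bicuculline (+bic). Black lines are mean ± SD, n = 4. Kcnf1, Kcnj2, Kcna1 and Kcnh4 are higher with bicuculline and Kcnv1, Kcng1, Kcnj12 and Kcna2 lower, with no overlap within a hairpin.

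Proteins that assemble with these channels or modify them were followed as a list of 23 genes, of which 21 were tested. With bicuculline in Control-shRNA, 3 were called higher and 2 lower, and with Dnmt3a1-shRNA2 2 higher and 3 lower. Over all genes 21.9% and 25.8% were called, near the share of the list. Lrrc55 and Lrrc26, gamma-type subunits of the large-conductance calcium-activated channel, were higher with both hairpins, at 0.76 ± 0.27 (adjusted p = 0.0346) and 0.70 ± 0.26 (adjusted p = 0.0402) in Control-shRNA. The libraries of Lrrc55 overlapped between conditions with both hairpins, and those of Lrrc26 with Control-shRNA. Akap5, which anchors kinases at Kcnq channels, was lower at −0.54 ± 0.10 (adjusted p = 0.000385), and Crbn, a regulator of the large-conductance channel, at −0.54 ± 0.07 (adjusted p = 1.42e-05). Dpp6 and Dpp10, the Kv4 partners, and Cntnap2, the axonal partner of Kv1, were not called, with log2 fold changes of 0.07 ± 0.06, 0.23 ± 0.07 and 0.14 ± 0.07.

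The promoters of the members were searched for letters that activity-dependent transcription factors are known to bind. A RefSeq table on GRCm38.p6 gave promoters, 250 bases before to 50 after each start, for 69 of the 94 members, 94 promoters in all. The cyclic AMP response element TGACGTCA and the Egr site GCGTGGGCG, searched on both strands, were in 0 of them, against 1.79% and 0.612% of all 32851 promoters. The AP-1 site TGACTCA was in 2 (of Kcnip3 and Kcnk2), against 5.20%. The E-box CACGTG was in 7 of the 94 promoters, those of 6 members, near the 7.15% of all promoters. Of the 6, Kcnab1 was not called and Kcne4, Kcnk5 and Kcnn4 were too low to test. Among called members it was only in Kcnh4 and Kcnj2, which rose with bicuculline, and a link of the letters to the rise was not tested. Their 30 bases around the E-box, in capitals, are shown on the strand of the gene for chr11:100759848-100759877 (minus strand, the E-box starting 87 bases before the RefSeq start, inside the GENCODE gene) and chr11:111066068-111066097 (plus strand, the E-box starting 84 bases before the RefSeq start).
Kcnh4: ccggtgcggagcCACGTGgtgggcgcgggc
Kcnj2: gggaagcgcagcCACGTGcgctccgattgg
A match of letters does not show that a factor binds there.

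The next comparisons asked which subunits depend on Dnmt3a1. In baseline, 5 of the 74 members were called with Dnmt3a1-shRNA2 against Control-shRNA, beside 5.83% of all genes called. Of them, 1 was higher (1.76% of all genes) and 4 lower (4.07% of all genes). With bicuculline, 5 members were called, beside 5.89% of all genes, and all 5 were lower (3.9% of all genes were). The adjusted p alone was passed by 19 members (25.7%) in baseline (16.3% of all genes) and 18 (24.3%) with bicuculline (17.7%). The hairpins did not overlap in 18 members (24.3%) in baseline (19.9% of all genes) and in 20 (27.0%) with bicuculline (20.9%). By the call with its fold threshold, the called members were 6.76% of those tested in both comparisons, close to the share over all genes. With library sizes alone, 8 members were called in baseline, all lower. That scaling called 1119 of the 17222 genes, 85.8% of them lower, and moved the median of all genes to −0.07. Some cell type markers also differed between the hairpins. Neuronal markers summed to 5529.7 to 5966 CPM in Control-shRNA and 6194 to 6919.8 CPM in Dnmt3a1-shRNA2 baseline, without overlap. With bicuculline they summed to 6162 to 6477 and 6409.8 to 7067 CPM, with overlap. Apart from Tubb3 none was called, and Map2 (0.16), Rbfox3 (0.09), Snap25 (0.04), Syn1 (0.04) and Syp (0.06) had small log2 changes in baseline. The sum of excitatory neuron markers was lower with the knockdown in baseline (2412 to 2652 and 2156 to 2393 CPM), without overlap. With bicuculline that sum overlapped (2344 to 2595 and 2057 to 2421 CPM), and no excitatory marker was called. The 6 microglial markers, of which 2 were tested, summed to 3.43 to 4.51 and 1.89 to 3.04 CPM in baseline and 3.54 to 4.91 and 2.55 to 3.14 CPM with bicuculline, without overlap. Csf1r was called lower in both comparisons (log2 changes of −0.66 and −0.75). C1qa, the other microglial marker tested, was called in neither (0.04 and −0.02). Tubb3 (0.51) and Pdgfrb (0.75) were called higher in baseline. The part of these markers in the Kcn results was not tested. Kcnn1, Kcnc2 and Kcng2 were called in both, and 7 members in at least 1. The baseline and bicuculline comparisons use separate libraries, and the log2 fold changes of the 74 members in the 2 comparisons had a Pearson's r of 0.64 and a Spearman's rho of 0.66, with the same sign in 57.

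Kcnn1 (chr8:70842049-70863258), a small-conductance calcium-activated channel, was lower with the knockdown. In baseline the Control-shRNA libraries had 25.9, 25.3, 25.5 and 27.3 CPM and the Dnmt3a1-shRNA2 libraries 15.04, 14.8, 18.3 and 16.6 CPM, a log2 change of −0.68 ± 0.09 (adjusted p = 4.79e-05). With bicuculline it had 23.4, 22.5, 23.2 and 20.1 CPM and 11.9, 9.96, 13.7 and 12.1 CPM, a log2 change of −0.91 ± 0.09 (adjusted p = 2.91e-06). Every knockdown library was below every control library, and the fall was 1.61-fold and 1.87-fold. Neither of the other tested SK genes was called. Kcnn3 passed the adjusted p alone in the opposite direction (log2 change 0.37 ± 0.08, adjusted p = 0.00490 in baseline and 0.25 ± 0.08, adjusted p = 0.0371 with bicuculline), and Kcnn2 had a log2 change of −0.23 ± 0.09 (adjusted p = 0.109) and −0.14 ± 0.09 (adjusted p = 0.349). In TPM, Kcnn1 made up 32.5% of the SK sum in Control-shRNA baseline and 23.3% in Dnmt3a1-shRNA2 baseline, with 21.6% and 13.1% with bicuculline.

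Kcnc2 (chr10:112271121-112467024) encodes a fast Kv3 pore known from GABAergic interneurons. It was at 74.2, 78.9, 80.3 and 82.6 CPM in Control-shRNA baseline and 52.8, 44.6, 58.8 and 45.6 CPM in Dnmt3a1-shRNA2 baseline (log2 change −0.65 ± 0.08, adjusted p = 3.25e-05). With bicuculline it was at 91.6, 96.5, 104 and 94.3 CPM and 64.0, 60.9, 70.9 and 61.7 CPM (log2 change −0.59 ± 0.08, adjusted p = 8.10e-05). The hairpins did not overlap in either condition. The related Kcnc1 and Kcnc4 were not called, with log2 fold changes in baseline of 0.00 ± 0.06 and 0.00 ± 0.10. The 5 markers of GABAergic neurons summed to 1338 to 1698 CPM in Control-shRNA baseline and 1061 to 1372 CPM in Dnmt3a1-shRNA2 baseline, and to 1943 to 2433 CPM and 1665 to 2174 CPM with bicuculline. None of them was called between the hairpins. Gad1 had a log2 change of −0.42 (adjusted p = 0.0267) in baseline and −0.29 (adjusted p = 0.111) with bicuculline, and its part in the Kcnc2 result was not tested.

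Of the Kv6 modifiers that fell with bicuculline, Kcng2 was called lower with the knockdown in both conditions and Kcng1 with bicuculline. Kcng2 was at 6.26, 7.88, 8.95 and 5.29 CPM in Dnmt3a1-shRNA2 baseline, below each Control-shRNA baseline library (log2 change −0.78 ± 0.20, adjusted p = 0.0106). With bicuculline it was at 2.93, 3.41, 4.78 and 2.73 CPM, where the highest knockdown library exceeded the lowest control library (log2 change −0.87 ± 0.21, adjusted p = 0.00917). Both calls were lost in TPM, at −0.63 (adjusted p = 0.205) and −0.80 (adjusted p = 0.0991) in log2(TPM + 1). Kcng1 was at 74.1, 72.9, 81.3 and 67.9 CPM in Dnmt3a1-shRNA2 baseline, overlapping Control-shRNA (log2 change −0.15 ± 0.13, adjusted p = 0.464). Its 19.4, 20.3, 24.5 and 18.2 CPM with bicuculline lay below all 4 control libraries, a 1.75-fold fall (log2 change −0.81 ± 0.13, adjusted p = 0.000444).

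Of the Kv9 modifiers, Kcns3 was lower and Kcns2 higher. Kcns3 (chr12:11090202-11151056) had 6.29, 5.74, 6.66 and 6.49 CPM in the Control-shRNA and 4.46, 4.97, 4.99 and 4.28 CPM in the Dnmt3a1-shRNA2 baseline libraries, which gave −0.43 ± 0.14 (adjusted p = 0.0467). With bicuculline it had 5.10, 6.96, 8.31 and 7.09 CPM and 4.00, 3.18, 4.85 and 3.58 CPM, which gave −0.81 ± 0.14 (adjusted p = 0.000838) and a call. The hairpins were apart in both conditions. Kcns2 (chr15:34837355-34843407) had 18.8, 17.5, 17.4 and 18.6 CPM in the Control-shRNA and 26.8, 25.3, 27.9 and 24.7 CPM in the Dnmt3a1-shRNA2 baseline libraries (log2 change 0.54 ± 0.06, adjusted p = 2.47e-05), the only member called higher. With bicuculline it had 16.6, 16.4, 16.5 and 14.5 CPM and 21.2, 20.3, 21.9 and 20.1 CPM (log2 change 0.38 ± 0.07, adjusted p = 0.000635), under the fold threshold and again without overlap. The baseline call of Kcns2 went to 0.46 (adjusted p = 0.000322) with library sizes alone. In TPM, the share of Kcns2 in the Kv9 sum was 45.6% in Control-shRNA baseline and 61.1% in Dnmt3a1-shRNA2 baseline.

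Kcnk10 (chr12:98429437-98578310), a mechanosensitive two-pore channel, was at 50.2, 40.8, 48.1 and 51.4 CPM in Control-shRNA baseline and 37.4, 30.9, 30.6 and 35.5 CPM in Dnmt3a1-shRNA2 baseline. These groups did not overlap, and the log2 change was −0.50 ± 0.08 (adjusted p = 0.000359), on the edge of the fold threshold. With bicuculline it was at 43.0, 49.8, 48.1 and 46.8 CPM and 38.3, 40.5, 41.4 and 38.3 CPM (log2 change −0.25 ± 0.08, adjusted p = 0.0447) and was not called. The baseline value lay between −0.46 and −0.48 without Control-shRNA replicate 1 or 4 or Dnmt3a1-shRNA2 replicate 2 or 3, which ended the call.

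Some further members passed the adjusted p alone. Kcnab2 was lower, at 176, 169, 180.3 and 157 CPM and 175, 148, 165 and 162 CPM, below each Control-shRNA library (log2 change −0.33 ± 0.06, adjusted p = 0.000680 and −0.37 ± 0.06, adjusted p = 0.000259). Kcnk4, a mechanosensitive two-pore gene, had a log2 change of −0.48 ± 0.10 (adjusted p = 0.00267) and −0.33 ± 0.10 (adjusted p = 0.0288). None of the 11 tested inward rectifiers was called. Kcnj10 had a log2 change of 0.39 ± 0.22 (adjusted p = 0.250) in baseline, where the 6 astrocyte markers had a median of 0.40 and none was called, and their part in the Kcnj10 value was not tested. Of the 21 tested partner genes, 1 was called in each comparison, beside 5.83% of all genes in baseline and 5.89% with bicuculline. The adjusted p alone was passed by 9 of the 21 in each, beside 16.3% and 17.7% of all genes. They went both ways, as with Amigo1 (log2 changes of −0.47 and −0.45) and Cntnap2 (0.26 and 0.30). Cntn2, an axonal partner of Kv1, was called higher in baseline (log2 change 0.64 ± 0.16, adjusted p = 0.0109), though its libraries overlapped between the hairpins. Adam23, of the same complexes, was called lower with bicuculline (log2 change −0.50 ± 0.08, adjusted p = 0.000231).

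**Figure D5:**
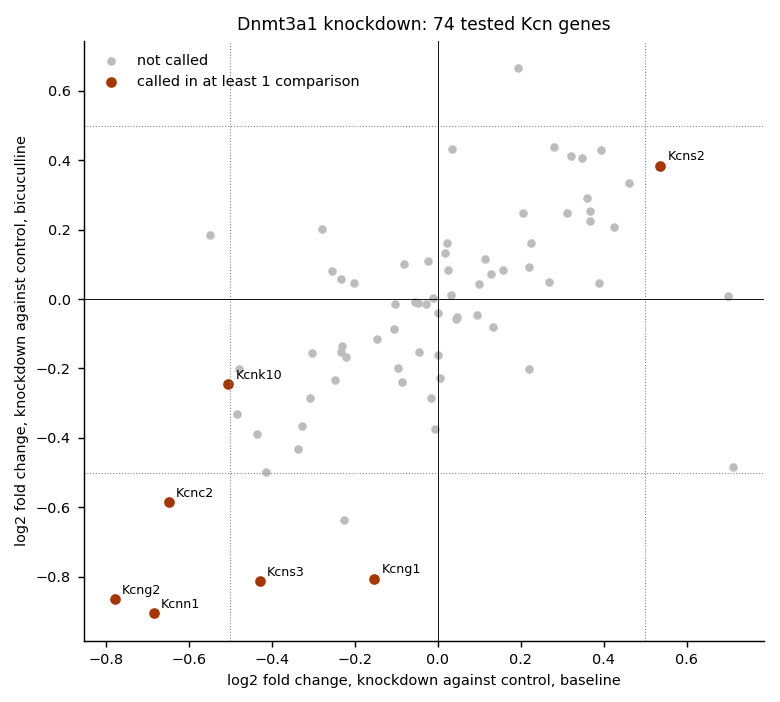
Log2 fold change of the 74 tested Kcn genes between Dnmt3a1-shRNA2 and Control-shRNA, in baseline (x axis) and with bicuculline (y axis), each point 1 gene. Named points were called in at least 1 comparison, and dotted lines mark the threshold of 0.5. Kcnn1, Kcnc2 and Kcng2 lie under −0.5 on both axes.

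Dnmt3a methylates cytosines in CpG pairs, and the sequence just before the RefSeq start of Kcnc2 and Kcnn1, which fell in both knockdown comparisons, is shown with each CpG in capitals. Each run is 150 bases on the strand of the gene, on GRCm38.p6. Kcnc2 (chr10:112270971-112271120, plus strand) has 5 CpG pairs in the 250 bases before its start, and 49.6% of all promoters have as many or fewer. Kcnn1 (chr8:70863259-70863408, minus strand) has 10, and 64.4% of all promoters have as many or fewer. The median was 8 over the 69 members with a promoter, counting a single promoter per member, and 6 over all 32851 promoters. The latter counts every promoter of a gene, so the medians are not of like sets.
Kcnc2: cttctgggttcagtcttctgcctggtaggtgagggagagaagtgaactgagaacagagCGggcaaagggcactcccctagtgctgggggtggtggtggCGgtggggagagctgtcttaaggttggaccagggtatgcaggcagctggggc
Kcnn1: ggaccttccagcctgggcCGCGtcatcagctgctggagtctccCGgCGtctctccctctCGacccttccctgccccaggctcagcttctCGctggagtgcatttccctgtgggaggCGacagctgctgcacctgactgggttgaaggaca
In Kcnn1, 132 of the 4587 exonic bases overlap a gene on the other strand. So do 380 of the 7633 in Kcnj6, 172 of the 4288 in Kcnj9 and 229 of the 3976 in Kcnk3. The overlap was larger in Kcna6 (2355 of 5945 bases) and Kcnj3 (1621 of 5215), and further members have one. Unless the counting used strand, which is not stated, reads from the 2 strands there cannot be told apart. Kcnk4 shares 587 of its 4465 exonic bases with a gene on the same strand. Methylation was not measured in these libraries, and the counts of CpG pairs describe the sequence alone.

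The last comparison asked whether the knockdown altered the response to bicuculline, as the difference of the 2 knockdown effects. By edgeR's quasi-likelihood test 0 members and 0 of all genes passed an adjusted p under 0.05. At an unadjusted p under 0.05 there were 5 members, beside 4.95% of all genes. The 5 were Kcng1, Kcnj11, Kcnv1, Kcnk10 and Kcnmb2. DESeq2 called 18 genes, with 0 members, and voom with limma called 0. With the replicate number as a block, edgeR called 3 genes, with 0 members. In that fit 13 members were at an unadjusted p under 0.05. The share of all genes at that p was counted only in the main fit, so no excess of members can be read from this. The largest of the 5 was Kcng1, whose fall with bicuculline was −1.19 ± 0.13 with Control-shRNA and −1.84 ± 0.13 with Dnmt3a1-shRNA2, a difference of −0.65 ± 0.18 (adjusted p = 0.633). Kcnv1 and Kcnj11, with a larger fitted fall in Dnmt3a1-shRNA2, differed by −0.42 ± 0.17 (adjusted p = 0.930) and −0.37 ± 0.13 (adjusted p = 0.877). None of these differences held after adjustment over the genes tested.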

How the data were processed

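RNA of 16 cultures was sequenced, 4 libraries per group, grouped by the sample labels. Per the labels, the authors trimmed reads with Trim Galore 0.6.4 and quantified them with kallisto (the labels give 0.4.6) on GRCm38.p6. They deposited estimated counts per gene, not scaled, and TPM, scaled for transcript length and library total. Whether counting used strand is not given in the sources used here. Symbols, classes and coordinates came from GENCODE M21 (GRCm38), with 55144 of 55385 identifiers matched without their version.

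Rounded estimated counts entered edgeR 4.0.16 under R 4.3.3 (quasi-likelihood test, TMM, edgeR's filter on low counts) in 1 fit of the 4 groups. p-values were adjusted by Benjamini-Hochberg over all 17222 genes tested. The authors' own test, voom with limma 3.58.1, was an alternative, beside DESeq2 1.42.0, its size factors, library sizes only, other filters, log2(TPM + 1) and log2(TPM + 0.1), a replicate block, other fold thresholds, a fit of only the compared groups and each library left out. Values are given for called members with a mean of at least 1 CPM, up to 8 per direction and comparison, and for the highest member of each class, and some members are not reported here by name. On simulated counts, 76 of 100 genes changed by 0.8 and 94 of 100 changed by 1.2 were recovered among 16955 in the baseline knockdown comparison, with 5 unchanged genes called. The changed genes were drawn from those with a mean of at least 1 CPM, so recovery at lower levels was not measured. The members, the partner list, the motifs and the markers were chosen with earlier results of these data known. The labels number the libraries 1 to 4, and same-numbered libraries deviated together (r of 0.142 to 0.221 across bicuculline treatment with Control-shRNA, r of 0.204 to 0.355 across hairpins without bicuculline). Libraries of a group differed by more than counting noise (chi-square over its degrees of freedom from 7.92 to 44.7).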

Additional observations from a re-analysis of the deposited data

Results flagged for a closer look

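Among the 27 members given by library, 6 of 108 groups of 4 held a library far from the other 3, about the 1 in 20 that chance gives. With Dnmt3a1-shRNA2, Kcna2 was at 77.0 CPM in baseline replicate 2 (others 107 to 112), Kcnj11 at 12.4 CPM in bicuculline replicate 3 (others 10.01 to 10.1) and Kcnj2 at 19.7 CPM in bicuculline replicate 1 (others 11.96 to 13.1). With Control-shRNA and bicuculline, Kcnd1 was at 11.8 CPM in replicate 1 (others 14.1 to 14.6), Kcnn3 at 39.8 CPM in replicate 2 (others 37.6 to 37.7) and Kcns2 at 14.5 CPM in replicate 4 (others 16.4 to 16.6). The bicuculline calls of Kcna2, Kcnj11, Kcnj2 and Kcnd1 held with each library left out in turn.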

How the results depend on the processing

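The fold threshold moved the number of called members most. With no fold threshold 34, 40, 19 and 18 members were called for bicuculline in Control-shRNA, bicuculline in Dnmt3a1-shRNA2, the knockdown in baseline and the knockdown with bicuculline, and with a log2 fold change over 1 the numbers were 7, 10, 0 and 0. With library sizes only, 8 members were called for the knockdown in baseline, all lower, and 85.8% of all genes called there were lower. The replicate block gave 21, 25, 5, 8 and 0 members, the last for the interaction. Neither the labels nor the paper state that a number marks a shared preparation. Bicuculline in Control-shRNA and the knockdown in baseline kept the same 21 and 5 members. In those comparisons the deviations of same-numbered libraries had an r of at least 0.142 for every number. The 25 for bicuculline in Dnmt3a1-shRNA2 added Kcng3 and Kcnv2, and 1 number there had r = 0.0631 between conditions. The 8 for the knockdown with bicuculline added 3, Kcnk13 and Kcns1 among them, in a comparison where 1 number had r = 0.0667 between hairpins, so the pairing there rests on the number alone. With each library left out in turn the numbers ranged from 19 to 23, 19 to 26, 4 to 7 and 5 to 7, and the interaction stayed at 0. Of the 21, 23, 5 and 5 calls, 15, 17, 2 and 4 held in each alternative other than the fold thresholds and in each of the fits without 1 library, and none reversed. Kcns2 and Kcnk10 lost their baseline calls in log2(TPM + 1), at 0.38 (adjusted p = 0.00873) and −0.36 (adjusted p = 0.0273), and the cause was not tested. Fits of only the compared groups and fold thresholds were not run for the interaction. The 20 members that stayed at 16 counts or fewer had too few counts for the test.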

Other observations

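Kcnu1, known as the pore of a sperm channel, was listed at 6.29 TPM in these neuronal cultures, and was not called in any comparison (log2 fold change −0.09 ± 0.14 with bicuculline in Control-shRNA and −0.22 ± 0.14 for the knockdown in baseline). Kcne1l, at 11.9 TPM, made up 95.8% of the Kcne sum in Control-shRNA baseline. The sodium-activated pores Kcnt1 and Kcnt2, at 16.5 and 9.48 TPM, were not called with bicuculline or with the knockdown.

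Among the 74 tested members, whose gene spans run from 1543 to 1135406 bases, the Spearman correlation of span with log2 fold change was 0.03 and 0.05 for bicuculline with Control-shRNA and Dnmt3a1-shRNA2, and −0.10 and 0.04 for the knockdown in baseline and with bicuculline. These correlations are across genes, which are not independent replicates.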
